A study of Mus musculus with 6 samples.

Results

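The 47 genes described here encode the machinery that opens replication origins and copies DNA at the fork, and their transcripts were measured by RNA-seq in mouse Th17 cultures grown with the ATP synthase inhibitor oligomycin or with its vehicle DMSO. Members were taken as the rows of the deposited table whose gene name equals a name on a fixed list of 47, and all 47 were found among 10041 rows. Naive CD4 T cells had been cultured for 48 h on plate-bound anti-CD3e (10 µg/ml) and anti-CD28 (1 µg/ml) with IL-6 (20 ng/ml), TGFb1 (2.5 ng/ml) and IL-23 (10 ng/ml), which is how Th17 helper cells are raised in a dish. The DMSO group (3 libraries) and the oligomycin group (2.5 ng/ml, 3 libraries) shared all of these conditions. Oligomycin acted on the whole culture, and each value is the average over all cells in it. The labels used here give no strain, genotype or age of the mice. Expression is in FPKM, by definition fragments scaled to transcript length and to the mapped fragments of the library. Levels can thus be compared between genes per unit of transcript length. Whether the libraries were scaled further is not known here. Libraries are numbered 1 to 3 within a group as in the column names. The sample titles carry the numbers 17, 42 and 43, each once in both groups, which may mark pairs of samples. What they stand for is not stated and no column carries them, so the test treats the groups as unpaired and the p-values below measure only the spread between these libraries.

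Replication starts where the origin recognition complex marks DNA in G1 and, with CDC6 and CDT1, loads a ring of 6 MCM proteins around it. In S phase the kinase CDC7 with its partner DBF4 triggers the binding of CDC45 and GINS, which turn the ring into the active helicase, and DNA polymerases, the sliding clamp PCNA, the single-strand binding protein RPA and chromatin assembly factors follow the fork. Many of these genes are known targets of E2F transcription factors and are transcribed as a cell passes from G1 into S phase. T cells stimulated through their receptor enter this programme before they divide.

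With oligomycin, genes of each role in the machinery other than RPA passed the limma test as lower, most of them by less than 2-fold. Rpa1 missed the threshold narrowly (adjusted p = 0.0507), so RPA is not shown to differ from the other roles. The median log2 change of the 3 RPA genes was -0.34, beside -0.32 for fork protection and -0.013 for the origin recognition complex. Of 47 members, all of which passed the filter on low values, 27 fell and 0 rose in the limma test (adjusted p under 0.05 over all 9986 rows tested), against 16.1% of all tested rows that fell and 14% that rose. The median log2 change over the members was -0.53, which is 30.7% lower on the FPKM + 1 scale, beside a median of -0.0044 over all tested rows. The strongest falls were those of Orc1 (2.44-fold lower mean), Dbf4 (2.14-fold) and Chaf1a (2-fold), and 18 members had a mean at least 1.5-fold lower. In 32 of 47 members every oligomycin library lay below every DMSO library, and in 0 members every one lay above, against 24.3% and 23.1% of all tested rows. In 45 members the estimated change was negative, against 5029 of the 9986 tested rows. It was negative in 41 members under quantile normalization or with libraries scaled to their sums without small RNA rows. In cultures of mixed cells, fewer cells in S phase and less mRNA per cell in S phase cannot be told apart.

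The number of members that fell changed when single libraries were left out, and so did the share of all tested rows that fell. Without DMSO libraries 1, 2 and 3 it was 17, 16 and 11 members, beside 10.8%, 10.5% and 10% of all rows. Without oligomycin libraries 1, 2 and 3 it was 33, 18 and 17 members, beside 18.8%, 14.1% and 11.2% of all rows. With libraries scaled to their sums without small RNA rows, 18 members and 12.8% of all rows fell. Cdt1, Gins1, Pola2, Prim1, Prim2, Pcna, Rfc2, Rfc4 and Tipin lost their calls there. Under that scaling the median of all tested rows moved to 0.099, and 40% of all calls were lower in place of 53.4%. With quantile normalization 20 members and 14.5% of all rows fell, and the calls of Cdt1, Gins1, Prim1, Prim2, Pcna, Rfc2 and Tipin were lost. 11 members fell in each alternative in which they were tested: Orc1, Orc6, Dbf4, Mcm10, Cdc45, Gins2, Pold3, Rfc3, Rfc5, Lig1 and Chaf1a. 10 members were called in no fit in which they were tested: Mcm2, Mcm6, Cdc7, Orc2, Orc3, Orc4, Orc5, Rpa2, Timeless and Wdhd1.

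**Figure D1:**
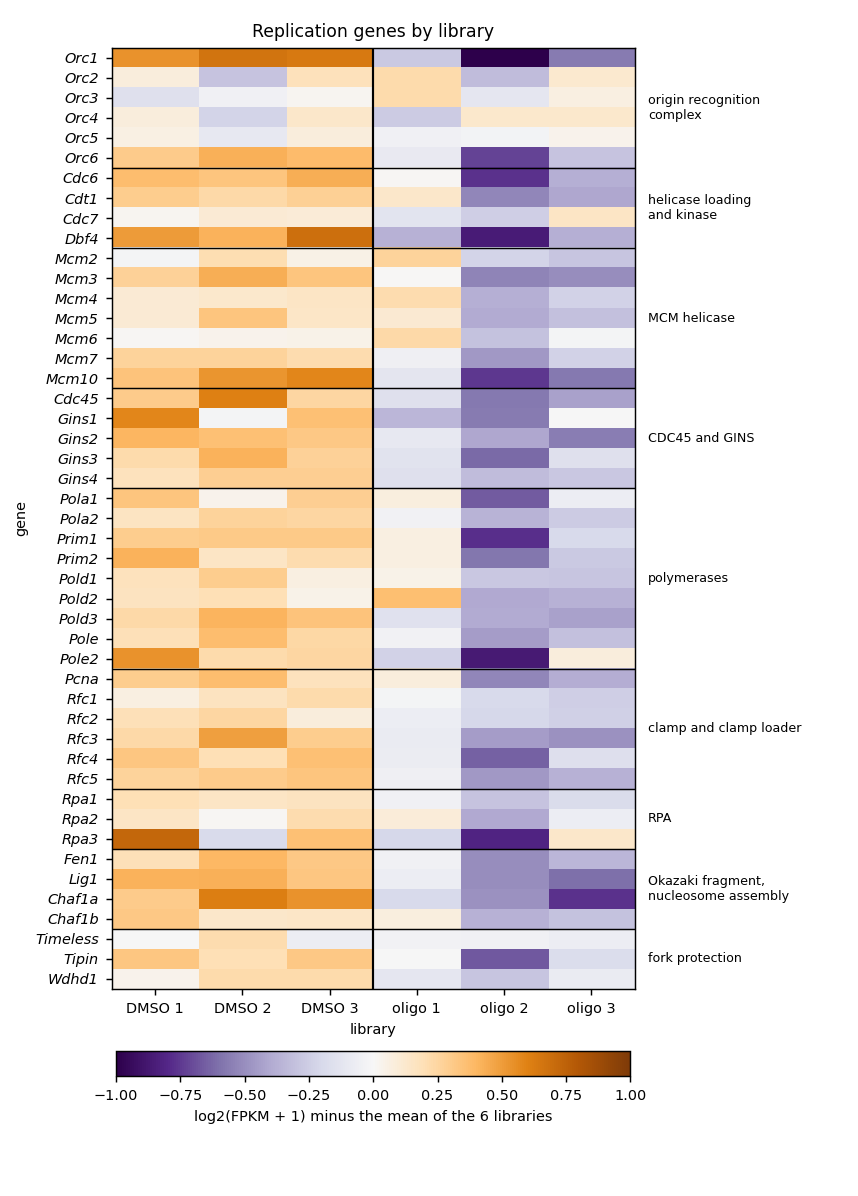
Each row is 1 of the 47 replication genes, grouped by role, and each column 1 library; colour gives log2(FPKM + 1) minus the mean of the 6 libraries for that gene (orange above, purple below). The DMSO columns are mostly orange and the oligomycin columns mostly purple, with oligomycin library 2 darkest and library 1 palest, and the rows of Orc2 to Orc5 and Timeless show no such divide.

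Promoter sequences of members are shown for the letters that E2F factors are known to bind, since E2F sites are a textbook feature of these genes. RefSeq (build GRCm38.p6) gave windows from 250 bases before to 50 after the start site for 39 of the 47 members. TTTCCCGC or TTTGGCGC, read on both strands, occurred in the windows of 13 of these 39 genes (33.3%), against 4.01% of 7104 tested genes with a window and 1.8% of all 27025 genes with one. Among members with a window, 7 of 20 that fell (35%) and 6 of 19 that were not called (31.6%) held a match. CCAAT, the box bound by NF-Y, occurred in 56.4% of members, 44.1% of tested genes and 41.1% of all genes with a window. TTTGAA, a form of the CHR element of mitotic genes, occurred in 17.9%, 13.8% and 20.2%. A match describes letters and is not a mapped binding site. The 4 windows with an E2F match and the smallest p in the expression test are those of Pold3, Rfc3, Mcm3 and Cdc6. The window of Mcm6, picked after its values were seen, is added because it holds 2 matches although its gene was not called. All are written 5′ to 3′ along the gene, with the E2F letters in capitals.
Pold3 (chr7:100121453-100121752, minus strand): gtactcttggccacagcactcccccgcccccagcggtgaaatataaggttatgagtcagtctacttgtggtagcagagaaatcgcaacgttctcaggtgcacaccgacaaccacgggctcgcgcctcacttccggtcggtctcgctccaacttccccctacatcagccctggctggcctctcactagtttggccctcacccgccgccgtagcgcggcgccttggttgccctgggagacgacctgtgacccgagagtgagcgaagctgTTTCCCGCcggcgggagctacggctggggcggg
Rfc3 (chr5:151651159-151651458, minus strand): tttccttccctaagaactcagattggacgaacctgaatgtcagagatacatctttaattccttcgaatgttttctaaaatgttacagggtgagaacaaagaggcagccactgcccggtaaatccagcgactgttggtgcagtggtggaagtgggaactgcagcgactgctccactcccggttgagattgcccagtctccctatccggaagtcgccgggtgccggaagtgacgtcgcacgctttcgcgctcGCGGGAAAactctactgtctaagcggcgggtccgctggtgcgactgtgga
Mcm3 (chr1:20820263-20820562, minus strand): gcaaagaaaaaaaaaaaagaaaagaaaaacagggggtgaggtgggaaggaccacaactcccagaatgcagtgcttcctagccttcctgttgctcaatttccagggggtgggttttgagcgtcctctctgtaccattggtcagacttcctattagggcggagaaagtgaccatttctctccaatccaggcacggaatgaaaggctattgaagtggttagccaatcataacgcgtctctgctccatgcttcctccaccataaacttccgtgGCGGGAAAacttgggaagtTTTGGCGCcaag
Cdc6 (chr11:98907901-98908200, plus strand): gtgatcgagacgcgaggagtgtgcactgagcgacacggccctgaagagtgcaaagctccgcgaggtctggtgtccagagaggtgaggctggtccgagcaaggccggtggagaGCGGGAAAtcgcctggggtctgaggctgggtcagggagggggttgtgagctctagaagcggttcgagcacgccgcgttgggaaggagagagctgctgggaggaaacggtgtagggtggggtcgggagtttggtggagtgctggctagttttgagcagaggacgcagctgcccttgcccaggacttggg
Mcm6 (chr1:128359656-128359955, minus strand): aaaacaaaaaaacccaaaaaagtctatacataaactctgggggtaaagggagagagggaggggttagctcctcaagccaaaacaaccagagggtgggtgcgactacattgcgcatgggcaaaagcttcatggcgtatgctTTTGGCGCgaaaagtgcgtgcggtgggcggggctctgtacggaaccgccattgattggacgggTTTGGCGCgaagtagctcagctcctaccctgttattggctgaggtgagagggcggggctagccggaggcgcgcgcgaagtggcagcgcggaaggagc
In Pold3 and Rfc3 the match lies at bases 18 to 25 and 1 to 8 after the start site, in Mcm3 the matches lie at bases 20 to 27 and 39 to 46, and in Cdc6 the match lies upstream of the RefSeq start, at positions -138 to -131. The Cdc6 row of the deposited table starts further upstream, at 98907889, so this match lies inside the row. Both matches in Mcm6 lie upstream of the RefSeq start, at positions -110 to -103 and -47 to -40.

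Among the 6 genes of the origin recognition complex, Orc1 and Orc6 fell and Orc2, Orc3, Orc4 and Orc5 were not called. Orc1 (XLOC_013937, chromosome 4, 108579454 to 108614831, GRCm38), the largest subunit and one whose supply is known to follow the cell cycle, stood at 19.1, 20.9 and 20.5 FPKM with DMSO and 10.5, 5.94 and 8.38 with oligomycin. Every oligomycin library held less than any DMSO library, and the lowest was library 2 (log2 change -1.22, SE 0.18, adjusted p = 0.00172). Orc6 (XLOC_020040, chromosome 8, 85299632 to 85308279), the smallest subunit, stood at 49.5, 54.0 and 52.4 FPKM with DMSO and 37.6, 23.9 and 32.6 with oligomycin, again without overlap (log2 change -0.73, SE 0.16, adjusted p = 0.0112). Both calls held in each alternative run. The other subunits were measured close to their DMSO levels. Orc2 stood at 42.2, 32.2 and 45.4 FPKM with DMSO and 46.6, 31.6 and 43.4 with oligomycin (log2 change 0.017, 95% interval -0.40 to 0.43, adjusted p = 0.949). Orc3 stood at 16.7, 18.1 and 18.9 FPKM with DMSO and 21.9, 17.2 and 19.6 with oligomycin (log2 change 0.12, 95% interval -0.16 to 0.40, adjusted p = 0.493), the highest estimate of all members. The groups overlapped in both.

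Orc4 stood at 22.1, 17.7 and 23.0 FPKM with DMSO and 17.2, 22.9 and 22.8 with oligomycin (log2 change -0.002, 95% interval -0.35 to 0.35, adjusted p = 0.993). Orc5 stood at 20.4, 18.2 and 20.8 FPKM with DMSO and 19.0, 19.2 and 20.2 with oligomycin (log2 change -0.025, 95% interval -0.27 to 0.22, adjusted p = 0.875). The intervals of Orc2 to Orc5 reach from -0.40 to 0.43, so a fall as large as that of the median member (-0.53) lies outside each of them, and smaller changes in either direction lie inside. The sign of Orc2, Orc4 and Orc5 turned under other scalings or without single libraries. Within a library, Orc1 was 0.754, 0.971 and 0.758 times the mean of Orc2 to Orc5 with DMSO and 0.400, 0.261 and 0.316 times with oligomycin. For Orc6 this ratio was 1.95, 2.50 and 1.94 with DMSO and 1.44, 1.05 and 1.23 with oligomycin. A ratio inside a library does not depend on its scaling, and neither ratio overlapped between the groups. This comparison was drawn up after the values were seen and was not tested. The rows of Orc3, Orc4 and Orc5 share their locus with Akirin2, Acvr2a and Gm15421.

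Of the genes that load the helicase and fire origins, Cdc6, Cdt1 and Dbf4 fell and Cdc7 was not called. Dbf4 (XLOC_015716, chromosome 5, 8396969 to 8422716), the regulatory subunit without which CDC7 is inactive, stood at 38.7, 36.4 and 44.0 FPKM with DMSO and 20.6, 14.5 and 20.5 with oligomycin. The oligomycin libraries held about the same low amount in libraries 1 and 3 and less in library 2 (log2 change -1.07, SE 0.16, adjusted p = 0.00174). Cdc7, the kinase subunit itself, stood at 14.6, 15.5 and 15.4 FPKM with DMSO and 13, 11.9 and 16.0 with oligomycin, with overlapping groups (log2 change -0.15, 95% interval -0.45 to 0.15, adjusted p = 0.409). Dbf4 was therefore 2.66, 2.35 and 2.85 times Cdc7 in the DMSO libraries and 1.58, 1.21 and 1.28 times in the oligomycin libraries. Like the ratios of the origin recognition complex genes, this ratio was drawn up after the values were seen and was not tested.

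Cdc6 (XLOC_003004, chromosome 11, 98907889 to 98923942), the ATPase that joins the origin recognition complex for ring loading, stood at 20.1, 19.5 and 21 FPKM with DMSO and 15.4, 8.58 and 11.6 with oligomycin (log2 change -0.76, SE 0.18, adjusted p = 0.0163). Its call was lost without DMSO library 3 (adjusted p = 0.0571). Cdt1, which escorts the MCM ring to the origin, stood at 45.4, 43.4 and 45.0 FPKM with DMSO and 40.7, 25.3 and 27.4 with oligomycin (log2 change -0.53, SE 0.17, adjusted p = 0.0463). Oligomycin library 1 lay close under the DMSO libraries there and the other two far below. The call of Cdt1 was lost without any 1 library other than oligomycin library 1 (adjusted p between 0.0916 and 0.137), and also without the filter or the intensity trend (0.0509 to 0.0717 over these and the 2 scalings named above).

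All 7 MCM genes had negative estimates, and 3 of them were called. The genes were not tested against each other, so a call does not set them apart from those not called. Mcm2 to Mcm7, which encode the helicase ring, were among the 10 most abundant members with DMSO. Mcm3, Mcm7 and Mcm10 fell, and Mcm2, Mcm4, Mcm5 and Mcm6 were not called. Mcm10 (XLOC_011582, chromosome 2, 4990724 to 5012791), a separate factor that helps the loaded helicase to start unwinding, stood at 26.4, 30.3 and 31.4 FPKM with DMSO and 18.9, 11.9 and 13.5 with oligomycin and had the steepest fall of the 7 (log2 change -0.97, SE 0.17, adjusted p = 0.00418). Mcm3 (XLOC_000677, chromosome 1, 20803014 to 20820213) stood at 191, 213 and 199 FPKM with DMSO and 158, 108 and 111 with oligomycin (log2 change -0.69, SE 0.16, adjusted p = 0.0146), and Mcm7 at 88.6, 88.6 and 85.7 FPKM with DMSO and 71.1, 52.9 and 62.8 with oligomycin (log2 change -0.50, SE 0.13, adjusted p = 0.0223). In all 3 genes the groups did not overlap. Without DMSO library 3 or oligomycin library 3 Mcm3 was not called (adjusted p = 0.0509 and 0.0563), and Mcm7 lost its call whenever 1 library except oligomycin library 1 was left out (0.0504 to 0.0724). The row of Mcm7 shares its locus with Mir25 and Mir93, which lie inside that gene.

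In Mcm2, Mcm4 and Mcm6 oligomycin library 1 stood above all DMSO libraries while libraries 2 and 3 stood below them. Mcm6 (XLOC_000979, chromosome 1, 128331591 to 128359656) stood at 230.2, 234 and 236 FPKM with DMSO and 268, 186 and 226 with oligomycin (log2 change -0.06, 95% interval -0.41 to 0.29, adjusted p = 0.78), and its estimate was positive under quantile normalization, under the scaling to sums without small RNA rows and without oligomycin library 2. Mcm2 stood at 88.3, 103 and 92.9 FPKM with DMSO and 108, 76.6 and 73.1 with oligomycin (log2 change -0.16, 95% interval -0.53 to 0.21, adjusted p = 0.471) and Mcm4 at 106, 107 and 109.5 FPKM with DMSO and 114, 75.5 and 83.8 with oligomycin (log2 change -0.26, 95% interval -0.62 to 0.10, adjusted p = 0.246). Mcm5 stood at 157, 184 and 162 FPKM with DMSO and 158, 111 and 118 with oligomycin, with oligomycin library 1 inside the DMSO range (log2 change -0.39, 95% interval -0.75 to -0.031, adjusted p = 0.0935). Mcm4 and Mcm5 were called without oligomycin library 1 (adjusted p = 0.0221 and 0.0140).

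The ring takes up its 6 subunits in equal number, but their transcripts were unequal already with DMSO. The most abundant of Mcm2 to Mcm7 was 2.61, 2.65 and 2.75 times the least abundant in the DMSO libraries and 3.77, 3.50 and 3.59 times in the oligomycin libraries. Mcm6 was the highest of the ring genes in each library. Mcm3 was 0.828, 0.909 and 0.843 times Mcm6 with DMSO and 0.591, 0.585 and 0.493 times with oligomycin, without overlap. Mcm3 was 2.15, 2.41 and 2.32 times Mcm7 with DMSO and 2.23, 2.05 and 1.77 times with oligomycin, and this ratio overlapped between the groups. These ratios were chosen after the values were seen and are given without a test.

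**Figure D2:**
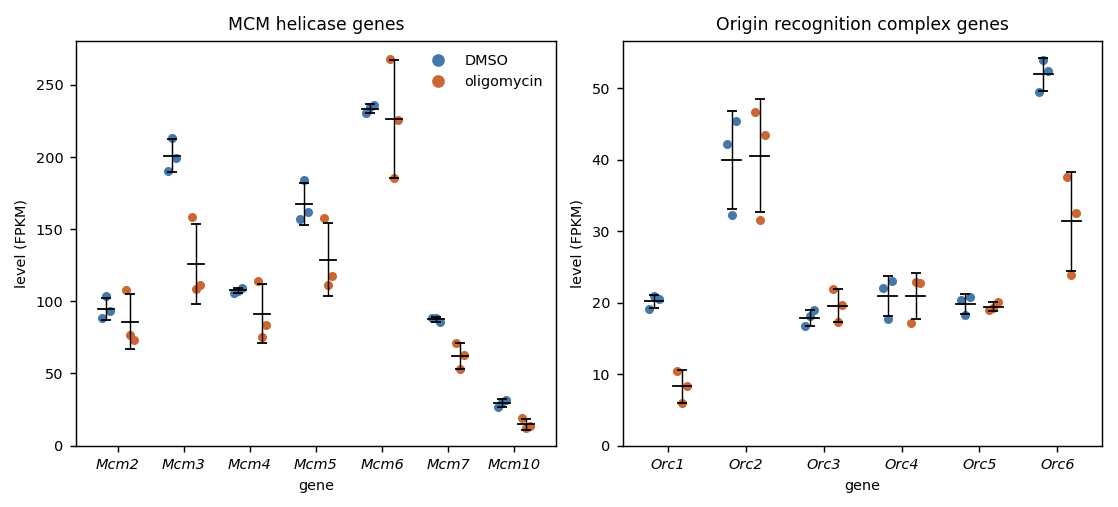
Level in FPKM of each MCM gene (left) and each origin recognition complex gene (right); dots are the 3 libraries of a group (blue DMSO, orange oligomycin, libraries 1 to 3 from left to right), bars the mean ± SD. Orc1, Orc6, Mcm3, Mcm7 and Mcm10 show groups apart, and Mcm2, Mcm4, Mcm5, Mcm6 and Orc2 to Orc5 show groups that overlap.

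All 5 genes of CDC45 and GINS, the factors that activate the helicase, fell, and their changes lay close together (log2 -0.77 to -0.50). Cdc45 (XLOC_007871, chromosome 16, 18780447 to 18811972) stood at 55.7, 69.2 and 53.6 FPKM with DMSO and 40.5, 30.0 and 33.2 with oligomycin (log2 change -0.77, SE 0.15, adjusted p = 0.00674). Gins2 stood at 42.9, 41.5 and 40.4 FPKM with DMSO and 30.1, 24.0 and 21.6 with oligomycin (log2 change -0.71, SE 0.14, adjusted p = 0.00601). Both were called in each alternative in which they were tested, and in both the groups were apart. The row of Gins2 shares its locus with Gse1, a gene on the opposite strand.

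Gins4 stood at 55.0, 59.5 and 59.5 FPKM with DMSO and 43.7, 38.6 and 40.0 with oligomycin (log2 change -0.50, SE 0.11, adjusted p = 0.0102). Gins3, the least abundant of all members, stood at 11.0, 12.8 and 11.4 FPKM with DMSO and 8.34, 5.69 and 8.26 with oligomycin (log2 change -0.61, SE 0.16, adjusted p = 0.0204). Gins1 stood at 53.9, 35.2 and 45.9 FPKM with DMSO and 27.8, 23.8 and 35.6 with oligomycin (log2 change -0.61, SE 0.19, adjusted p = 0.0418), and here the groups overlapped, since oligomycin library 3 lay just above DMSO library 2. Gins4 was not called without DMSO library 3 (adjusted p = 0.0515) and Gins3 not without DMSO library 2 or 3 (0.0683 and 0.0589). Gins1 was not called without DMSO library 1 or 3 or oligomycin library 1 or 2 (0.0756 to 0.135), nor under 3 scalings or without the intensity trend (0.0509 to 0.0912).

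Of 9 polymerase genes 5 fell and 4 were not called, with a median log2 change of -0.52. Pold3 (XLOC_019259, chromosome 7, 100082113 to 100121500), an accessory subunit of polymerase delta, which copies the lagging strand, stood at 32.2, 36.6 and 34.8 FPKM with DMSO and 24.6, 20.5 and 20.0 with oligomycin (log2 change -0.65, SE 0.12, adjusted p = 0.00549). Pole, the catalytic subunit of polymerase epsilon on the leading strand, stood at 19.9, 22.7 and 20.6 FPKM with DMSO and 16.9, 12.4 and 13.8 with oligomycin (log2 change -0.53, SE 0.13, adjusted p = 0.0195). Both show groups that are apart, with oligomycin library 1 the nearest to DMSO. Pole was not called without DMSO library 2 or 3 or oligomycin library 3 (adjusted p = 0.0679, 0.0592 and 0.0618). Pole2, its second subunit, stood at 26.5, 21.2 and 21.5 FPKM with DMSO and 15.2, 9.47 and 19.2 with oligomycin, a larger estimated change that missed the threshold (log2 change -0.67, 95% interval -1.18 to -0.16, adjusted p = 0.0532). It passed without oligomycin library 3 (adjusted p = 0.0254) and without rows that share a locus or name several genes (0.0357). Pole2 also passed with the column number as replicate block (adjusted p = 0.0287).

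In the polymerase alpha-primase complex, which lays down the first primers, Pola2, Prim1 and Prim2 fell. Pola2, the B subunit, stood at 44.4, 47.6 and 47.1 FPKM with DMSO and 38.7, 30.5 and 32.8 with oligomycin (log2 change -0.44, SE 0.12, adjusted p = 0.0262). Prim1, the catalytic primase subunit, stood at 71.2, 71.9 and 72.0 FPKM with DMSO and 60.7, 33.5 and 50.5 with oligomycin (log2 change -0.60, SE 0.20, adjusted p = 0.0481). Its DMSO libraries were nearly equal and its oligomycin libraries ranged widely. Prim2, the large primase subunit, stood at 43.3, 35.8 and 37.5 FPKM with DMSO and 33.8, 21.1 and 26.5 with oligomycin (log2 change -0.52, SE 0.17, adjusted p = 0.0483). All 3 calls were lost without any 1 library other than oligomycin library 1 (adjusted p 0.0611 to 0.0913 for Pola2, 0.0685 to 0.119 for Prim1 and 0.0755 to 0.147 for Prim2). Prim1 was also lost under 7 of the other alternatives and Prim2 under 6.

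Pola1, the catalytic subunit of polymerase alpha, stood at 34.9, 28.2 and 33.6 FPKM with DMSO and 28.9, 17.0 and 26.3 with oligomycin with overlapping groups (log2 change -0.43, 95% interval -0.87 to 0.0065, adjusted p = 0.122). Pold1, the catalytic subunit of polymerase delta, stood at 67.0, 72.8 and 62.1 FPKM with DMSO and 61.1, 48.7 and 48.5 with oligomycin with groups that did not overlap (log2 change -0.35, 95% interval -0.65 to -0.05, adjusted p = 0.0751). Pold2, its B subunit, stood at 60.0, 61.4 and 54.9 FPKM with DMSO and 68.8, 40.0 and 41.0 with oligomycin (log2 change -0.27, 95% interval -0.73 to 0.18, adjusted p = 0.326). In Pold2 oligomycin library 1 was the highest of all 6 libraries. Without that library Pold1 and Pold2 were called (adjusted p = 0.0212 and 0.0113). Pola1 was called with the column number as replicate block (adjusted p = 0.0334).

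Pcna, the sliding clamp and the most abundant member with DMSO, and 4 of the 5 clamp loader genes fell. Pcna (XLOC_012274, chromosome 2, 132249286 to 132253180) stood at 307, 324 and 283 FPKM with DMSO and 265, 174 and 192 with oligomycin (log2 change -0.55, SE 0.17, adjusted p = 0.0415). Rfc3 stood at 53.5, 64.1 and 56.0 FPKM with DMSO and 43.0, 33.0 and 32.2 with oligomycin (log2 change -0.68, SE 0.14, adjusted p = 0.00916) and Rfc5 at 34.1, 35.1 and 35.9 FPKM with DMSO and 27.4, 20.3 and 21.7 with oligomycin (log2 change -0.59, SE 0.13, adjusted p = 0.0114). In all 6 genes of this group the oligomycin libraries lay below the DMSO libraries. Rfc4 stood at 43.9, 40.2 and 44.8 FPKM with DMSO and 33.1, 21.9 and 31.1 with oligomycin (log2 change -0.58, SE 0.16, adjusted p = 0.0257) and Rfc2 at 78.7, 81.7 and 72.9 FPKM with DMSO and 65.7, 59.4 and 58.1 with oligomycin (log2 change -0.34, SE 0.11, adjusted p = 0.047). Rfc1, the large subunit that gives the loader its identity, stood at 34.5, 37.1 and 38.4 FPKM with DMSO and 32.4, 28.5 and 27.6 with oligomycin (log2 change -0.31, 95% interval -0.56 to -0.048, adjusted p = 0.0718) and was called without oligomycin library 1 (adjusted p = 0.0376). Rfc3 and Rfc5 were called in each alternative. Pcna and Rfc2 lost their calls whenever 1 library except oligomycin library 1 was left out (adjusted p 0.0832 to 0.124 and 0.0926 to 0.144), and Rfc4 not without DMSO library 1 or 3 (0.0763 and 0.0854). The row of Rfc4 shares its locus with Eif4a2, Snord2 and Snora81. Pcna has 2 annotated pseudogenes, Pcna-ps1 and Pcna-ps2, whose reads could be counted to it.

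The 3 genes of RPA, which coats single-stranded DNA, were not called. Rpa1, the large DNA-binding subunit, stood at 126, 121 and 123 FPKM with DMSO and 106, 89.1 and 96 with oligomycin (log2 change -0.34, 95% interval -0.61 to -0.08, adjusted p = 0.0507). It missed the threshold narrowly with groups apart. It was called without oligomycin library 1 (adjusted p = 0.0251), with a pseudocount of 0.1 (0.0485) and without the filter (0.0493). It was also called without rows that share a locus or name several genes (0.0453) and with the column number as replicate block (0.0454). Rpa2 stood at 58.1, 52.5 and 60.6 FPKM with DMSO and 55.4, 39.2 and 49.6 with oligomycin (log2 change -0.25, 95% interval -0.59 to 0.08, adjusted p = 0.215). Rpa3 stood at 89.2, 46.9 and 69.2 FPKM with DMSO and 46.4, 30.2 and 59.2 with oligomycin (log2 change -0.59, 95% interval -1.23 to 0.05, adjusted p = 0.144), the widest scatter among DMSO libraries of all members. With the column number as replicate block Rpa3 was called (adjusted p = 0.0239).

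Fen1 and Lig1, which trim and seal Okazaki fragments, fell, as did Chaf1a, the large subunit of the assembly factor that places histones on new DNA. Lig1 (XLOC_017659, chromosome 7, 13258967 to 13311427) stood at 48.1, 48.3 and 45.1 FPKM with DMSO and 34.1, 25 and 23.2 with oligomycin (log2 change -0.78, SE 0.15, adjusted p = 0.00647). Fen1 stood at 97.8, 113 and 107 FPKM with DMSO and 83.0, 60.1 and 67.0 with oligomycin (log2 change -0.60, SE 0.14, adjusted p = 0.0149). Chaf1a (XLOC_008628, chromosome 17, 56040416 to 56068026) stood at 26.9, 33.7 and 31.8 FPKM with DMSO and 18.7, 15.1 and 12.3 with oligomycin (log2 change -0.97, SE 0.16, adjusted p = 0.00343). Its partner Chaf1b stood at 26.8, 23.6 and 23.8 FPKM with DMSO and 22.5, 16.3 and 17.2 with oligomycin (log2 change -0.40, 95% interval -0.72 to -0.08, adjusted p = 0.0633). In all 4 genes the groups were apart. Lig1 and Chaf1a were called in each alternative, and Fen1 not without DMSO library 2 or 3 or oligomycin library 3 (adjusted p = 0.0536, 0.0573 and 0.0518). Chaf1b was called without oligomycin library 1 (adjusted p = 0.0136) and with the column number as replicate block (0.0295).

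Of the fork protection genes Tipin fell and Timeless and Wdhd1 were not called. Tipin stood at 132, 121 and 132 FPKM with DMSO and 105, 66.0 and 93.0 with oligomycin (log2 change -0.57, SE 0.17, adjusted p = 0.0383). Timeless, whose protein binds TIPIN as a partner at the fork, stood at 30.3, 35.4 and 29.0 FPKM with DMSO and 29.6, 29.4 and 28.9 with oligomycin (log2 change -0.10, 95% interval -0.36 to 0.16, adjusted p = 0.538). The Timeless libraries with oligomycin were nearly equal and close to 2 of the 3 DMSO libraries, and the estimate was positive when libraries were scaled to sums without small RNA rows. Wdhd1, which ties polymerase alpha to the helicase, stood at 24.6, 28.1 and 28.1 FPKM with DMSO and 22.1, 19.5 and 22.6 with oligomycin with groups apart (log2 change -0.32, 95% interval -0.58 to -0.06, adjusted p = 0.066). Tipin lost its call whenever 1 library except oligomycin library 1 was left out (adjusted p 0.0656 to 0.111).

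**Figure D3:**
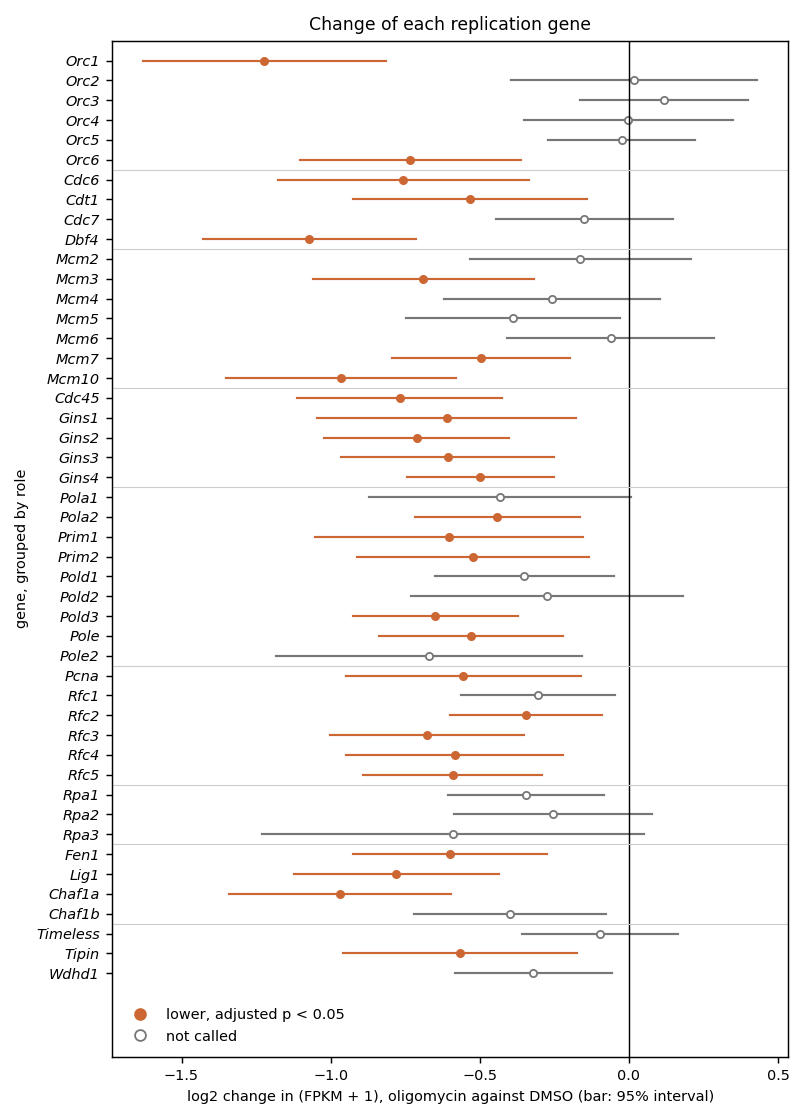
Fitted log2 change of each replication gene (oligomycin against DMSO, log2(FPKM + 1) scale) with its 95% interval; filled orange points fell at an adjusted p under 0.05, open grey points were not called, and grey lines part the roles. All filled points lie left of 0, from -0.34 (Rfc2) to -1.22 (Orc1), and the points of Orc2 to Orc5, Mcm6 and Timeless lie nearest to 0.

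The oligomycin libraries differed among themselves in the same order for most members. Library 1 was the highest of the 3 in 40 of 47 members and library 2 the lowest in 35. Library 1 lay below all DMSO libraries in 36 members, inside their range in 5 and above it in 6, while libraries 2 and 3 lay below it in 43 and 40. The same counts were not made over all tested rows, so these have no background beside them. As a deviation from its own mean over all 6 libraries, the median member stood at 0.231, 0.244 and 0.245 with DMSO and at -0.046, -0.449 and -0.270 with oligomycin on the log2(FPKM + 1) scale. Over all tested rows these medians stayed between -0.047 and 0.037. Without oligomycin library 2 the median change of the members was -0.37, and without library 1 it was -0.63.

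**Figure D4:**
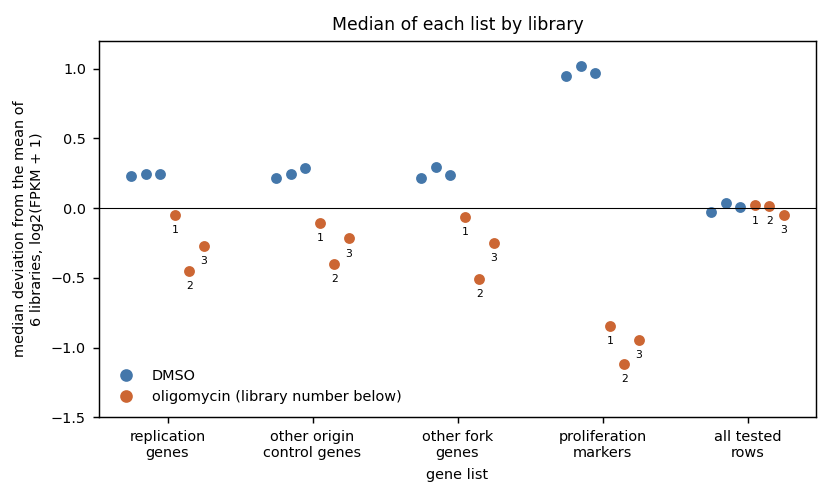
Median deviation of each gene list from the mean of the 6 libraries (log2(FPKM + 1)), 1 dot per library (blue DMSO, orange oligomycin with its number). For the replication genes the oligomycin dots run from -0.046 in library 1 to -0.449 in library 2, and for the proliferation markers from -0.843 to -1.12, while all tested rows stay near 0.

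Other genes of origin control and of the fork fell as well, by counts that depended on the setting. In the list of 19 tested genes that license and fire origins, 10 fell and 0 rose (median log2 change -0.45; 5 to 13 fell in the alternatives). Ccna2, the cyclin of S and G2 phase, fell from 168 ± 3.07 to 42.5 ± 7.69 FPKM (log2 change -1.97, SE 0.15, adjusted p = 7.01e-05). Fbxo5, an inhibitor of the anaphase promoting complex, and Gmnn, the inhibitor of CDT1, fell from 58.3 ± 6.63 to 25.7 ± 3.63 FPKM and from 96.7 ± 4.29 to 43.5 ± 10.1 FPKM (adjusted p = 0.000813 and 0.00173). Rif1, which delays origin firing, was the positive estimate with the smallest p and was not called (log2 change 0.055, adjusted p = 0.730). Of 25 other fork genes 12 fell and 1 rose (median -0.51; 9 to 16 fell). Top2a, the topoisomerase that untangles copied DNA, fell from 331 ± 9 to 109 ± 15.1 FPKM (log2 change -1.60, SE 0.14, adjusted p = 0.000125), and the cohesin acetyltransferase gene Esco2 and the histone chaperone gene Asf1b fell by 1.28 and 1.04. Pole4, a small histone-fold subunit of polymerase epsilon, was the exception and rose from 42.2 ± 2.72 to 66.8 ± 12.1 FPKM (log2 change 0.64, SE 0.14, adjusted p = 0.0122).

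In the checkpoint list 4 of 12 genes fell and 0 rose (median -0.32; 3 to 5 fell). Cdc25b and Cdc25c, phosphatases that switch on mitotic kinases, fell from 20.4 ± 2.92 to 4.55 ± 0.3 FPKM and from 10.1 ± 1.35 to 2.05 ± 0.406 FPKM, and Brca1, a repair factor, fell by 0.88 (adjusted p = 0.00129). Rad1, a clamp subunit of the checkpoint, was not called (log2 change 0.21, adjusted p = 0.260). Among 18 tested genes of E2F factors and their partners 8 fell and 1 rose (median -0.41; 4 to 9 fell, and 0 or 1 rose). E2f2, an activator, fell from 17.4 ± 1.06 to 7.47 ± 0.599 FPKM (log2 change -1.12, SE 0.12, adjusted p = 0.000325). E2f8, a repressor, and Mybl2, which acts on mitotic genes, fell by 1.24 and 1.37. E2f6, a repressor that lacks the pocket protein domain, rose from 12.2 ± 1.11 to 17.0 ± 2.23 FPKM (log2 change 0.44, SE 0.13, adjusted p = 0.0374). Of 4 tested genes for CDK inhibitors Cdkn2c fell from 19.7 ± 1.01 to 7.30 ± 2.48 FPKM (adjusted p = 0.00266) and 0 rose, while 1 or 2 fell and 0 or 1 rose in the alternatives. Cdkn1a, Cdkn2d and Cdkn1b were not called, at log2 changes of -0.58, -0.36 and 0.41 (adjusted p = 0.110, 0.135 and 0.181).

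The general proliferation markers fell further than the replication genes. All 12 fell, in each alternative in which they were tested, with log2 changes from -2.41 to -1.58 and a median of -1.92, beside -0.53 for the members, and no member changed as far as the least changed marker (the lowest member change was -1.22). One of the 12, Top2a, is also on the list of fork genes. Cdc20 and Aurka, which act in mitosis, fell from 95.6 ± 7.12 to 20.9 ± 0.41 FPKM and from 56.5 ± 1.55 to 14.1 ± 0.271 FPKM (adjusted p = 2.64e-05 and 2.89e-05), and Plk1, a mitotic kinase, fell by 2.19. The medians of the markers by library were 0.945 to 1.02 with DMSO and -0.843, -1.12 and -0.947 with oligomycin. The difference between both lists was not tested, and most of these markers are genes of G2 and mitosis.

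**Figure D5:**
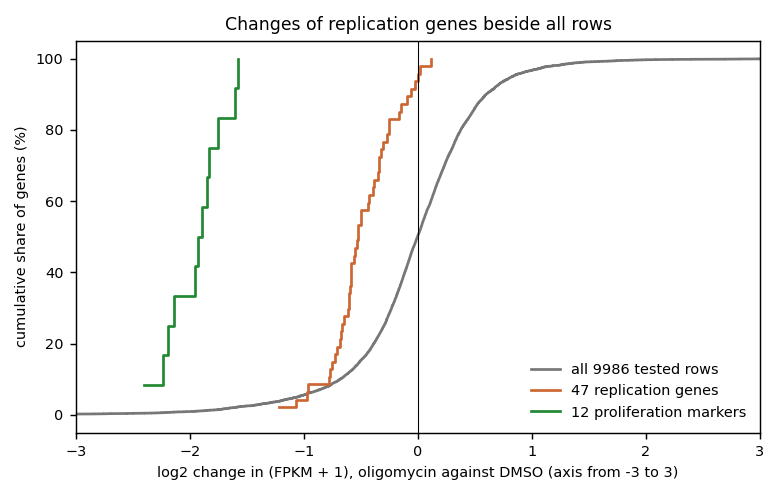
Cumulative share of genes (%) by log2 change (oligomycin against DMSO) for all 9986 tested rows (grey), the 47 replication genes (orange) and 12 proliferation markers (green). The orange curve crosses its middle at -0.53 and the green curve at -1.92, against -0.0044 for all rows.

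The libraries carried the markers of CD4 T cells in both groups. All 8 markers had a row, and their summed level was 1091 to 1250 FPKM with DMSO and 990.0 to 1186 with oligomycin. Thy1 and Cd28 fell (0 to 2 of the 8 fell in the alternatives). Of 5 B cell markers 0 matched a row of the table used here, and of 2 CD8 T cell markers Cd8b1 did, at 2.41 to 3.30 FPKM over the 6 libraries. A marker without a row has no level here and is not shown to be absent from the cultures. Foxm1, Supt16 and Pclaf of the E2F and fork lists had no row under these names either. Among 8 myeloid and dendritic markers only H2-Ab1, a class II chain, had a row, at 17.2 to 26.3 FPKM with DMSO and 0.819 to 2.65 with oligomycin, and among 5 NK and erythroid markers only Klrd1, at 12.8 to 34.6 and 5.53 to 23.8. Their part in the changes of the replication genes was not tested. FPKM sums ran from 1434030 to 2103400, of which rows that name small RNAs took 71.1% to 78.0% with DMSO and 80.2% to 82.2% with oligomycin, and their part was likewise not tested except through the scaling named above. The exons of 16 members overlap an exon of a gene on the opposite strand in GENCODE M21, and since the sources used here do not give the strand of the libraries, reads of both could not be told apart there.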

How the data were processed

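The values are FPKM per gene, deposited by the authors as 1 table of 10041 rows and 6 libraries. Build mm10 (GRCm38) and the tools Cuffdiff 2.2.1.3, Cuffnorm 2.2.1.1, Cufflinks 2.2.1.0 and TopHat2 2.1.0 are listed in the submitters' processing notes, with no role or order. The sources used here do not give the annotation or the strand. No counts are given and low values show no common step between libraries, so depth is unknown and no counting interval is given. The columns name the group and a number from 1 to 3 only, and were assigned to groups by that name.

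From these values log2(FPKM + 1) was tested with limma 3.58.1 (R 4.3.3) on rows with at least 1 FPKM in at least 3 libraries (9986 rows), with group as the only term, an intensity trend, 2-sided tests and Benjamini-Hochberg adjustment over all tested rows. Log2 changes are on this scale, which understates changes of low genes. Called means an adjusted p under 0.05. On simulated data with far fewer changed genes than here, the fit missed most changes of about the members' median size. Fewer changed genes make the adjusted threshold stricter, so that result does not give the share missed in these data. A gene that was not called is still not shown to be unchanged. Starts in the table count from 0 and are printed with 1 added.

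The 15 alternatives changed the pseudocount, filter, scaling, trend, rows, replicate block or left out 1 library. Every member is named, and of the other gene lists the 3 genes with the smallest p and, where there is one, the gene with the smallest p in the opposite direction. Of the cell type markers those called or alone in the table are named. The members and lists were chosen with earlier results of these data known.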

Additional observations from a re-analysis of the deposited data

How the results depend on the processing

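In each of the 15 alternatives 0 members rose. Leaving out 1 library gave 11 to 33 members lower, a median member change of -0.63 to -0.37, and 989 to 1861 genes lower and 780 to 1387 genes higher over all rows. Fewer libraries entered those fits. The lowest member count came without DMSO library 3 and the highest without oligomycin library 1. The other alternatives gave 18 to 32 members lower, which stayed within 1.5 times the reported 27. Scaled to sums without small RNA rows, 1279 genes were lower and 1915 higher, against 1610 and 1403. Some changes near 0 turned sign, for which the cause was not tested. With quantile normalization Mcm2 was at 0.011, Mcm6 at 0.14, Orc4 at 0.042 and Orc5 at 0.0097. Scaled to sums without small RNA rows, Mcm6 was at 0.051, Orc4 at 0.11, Orc5 at 0.082 and Timeless at 0.012. Leaving out 1 library moved Orc2 from -0.13 to 0.18, Orc4 from -0.11 to 0.13, Orc5 from -0.081 to 0.0095 and Mcm6 from -0.19 to 0.074.

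Same-numbered columns of both groups deviated from their group means with correlations of 0.056, 0.247 and 0.132. The other combinations ran from -0.216 to 0.117, the highest being oligomycin library 1 with DMSO library 3. These values do not settle whether the numbers mark pairs. The main fit therefore treats the groups as unpaired, and the block is given as an alternative. With the column number as replicate block 32 members were lower and 0 higher, since Pola1, Pole2, Rpa1, Rpa3 and Chaf1b were called as well (adjusted p = 0.0334, 0.0287, 0.0454, 0.0239 and 0.0295), with 1864 genes lower and 1668 higher over all rows. The FPKM table gives no read depth, so the precision of low values could not be set from counts.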

Other observations

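The oligomycin libraries varied more among themselves than the DMSO libraries did, and more for the replication genes than for the table at large. The median coefficient of variation (SD over mean, FPKM) over the 47 members was 6.74% with DMSO and 19.1% with oligomycin, and it was the larger one with oligomycin in 44 of 47 members. Over all tested rows the medians were 10.8% and 14.6%, and 64.3% of rows varied more with oligomycin. With 3 libraries a group these are descriptions and were not tested. The members were also more abundant, with a median DMSO mean of 44.58 FPKM against 14.53 over all tested rows. Rows of like level were not compared.

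The order of levels among members also shifted. With DMSO Pcna, at a mean of 304.7 FPKM, led Mcm6 (233.5) and Mcm3 (200.9). With oligomycin Mcm6 (226.3) led Pcna (210.3), and the ranges of both genes over the oligomycin libraries overlapped. Within each oligomycin library Mcm6 was above Pcna, narrowly so in library 1 (267.8 against 265.3 FPKM). This order was not tested. Orc2 moved from place 27 to place 18, and Dbf4 from place 28 to place 39, although the mean of Orc2 was 40.0 and 40.6 FPKM in the groups.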
